A study of Homo sapiens with 4 samples.

Results

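Keratins are the intermediate filament proteins of epithelial cells, and 10 keratin genes (KRT7, KRT8, KRT10, KRT15, KRT17, KRT18, KRT19, KRT20, KRT23 and KRT80) were described here in colon cancer cells with and without TGF-β1. They were chosen by symbol, as every probe set whose only gene name in the platform annotation was one of the 10. This gave 15 probe sets for 9 genes, of 54613 probe sets and 19775 genes read in all. KRT17 had no probe set with that single name and was not analysed here. A probe set is a group of short array probes that together read a transcript. KRT7, KRT10 and KRT19 had several, and each of the other 6 genes had 1.

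Keratin filaments are built from pairs, each of an acidic type I chain and a basic type II chain. KRT10, KRT15, KRT17, KRT18, KRT19, KRT20 and KRT23 are type I chains, and KRT7, KRT8 and KRT80 are type II chains. KRT8 with KRT18 is the basic pair of simple epithelia such as the gut lining, where KRT19 and KRT20 are added as further type I chains. The filaments are anchored to desmosomes and hemidesmosomes by plakins and related proteins and give the cell layer its mechanical strength.

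RNA came from LSTGFBR2 cells, an epithelial colon cancer line with an inducible construct for TGFBR2, the type II TGF-β receptor that binds the cytokine. Of 4 arrays, 2 came from cells given recombinant TGF-β1 at 5 ng/ml for 16 hours and 2 from cells without it, and arrays 1 and 2 of each group carry the labels' replicate numbers. The treatment protocol given with all 4 samples describes doxycycline, the inducer of the construct, from seeding, while the series' design text speaks of its presence or absence, so whether both groups received it is not settled. The labels do not say whether the line is a single clone or whether replicates were separate cultures, so the p-values rest on a spread between arrays that may be only technical. All levels below are RMA values on the log2 scale and all differences are TGF-β1 minus untreated on that scale. A gene was called at a limma p under 0.05 after Benjamini-Hochberg adjustment over all genes.

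Replicate arrays correlated at r = 0.996 across genes in either group. The median over genes lay between 7.64 and 7.67 in the 4 arrays. TGFBR2 read 14.70 and 14.92 in TGF-β1 arrays, against 9.44 and 9.55 in untreated arrays by its _s_at probe set, and 10.58 and 10.76 in TGF-β1 arrays, against 10.47 and 10.81 in untreated arrays by its _at set. The groups thus differ in a TGFBR2 signal and not in the cytokine alone. Of 8 intestinal epithelial markers, 8 had a mean level above the median over genes. The mean of those 8 was 10.59 to 10.65 in TGF-β1 arrays and 10.55 to 10.60 in untreated arrays. Of the measured markers of fibroblasts, 1 of 8 (COL1A1) lay above it by the mean over the 4 arrays. COL3A1 averaged 8.33 in untreated arrays and 6.61 in TGF-β1 arrays. Above the median over genes lay 0 of 4 markers of squamous epithelium, 0 of 5 of endothelium and 0 of 4 of leukocytes.

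KRT80 was the keratin that rose, 3.43-fold. KRT7 and KRT19 were higher in both TGF-β1 arrays than in both untreated arrays, without passing the adjusted test. The simple-epithelial pair KRT8 and KRT18 differed between the groups by less than 1 SD of the replicates and did not pass. That SD includes a shift between replicate numbers, since array 2 was the lower in both groups for both genes. KRT10, KRT15, KRT20 and KRT23 did not pass either. Of the 9 genes, 1 was called higher and 0 lower by limma. At an unadjusted p under 0.05, 3 passed, each of them higher, against 1617 of all 19775 genes higher and 1688 lower (16.7% in either direction). Over all genes, 1.87% were called higher and 1.47% lower. The median difference was 0.08 over the 9 keratins and -0.0036 over all genes.

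**Figure D1:**
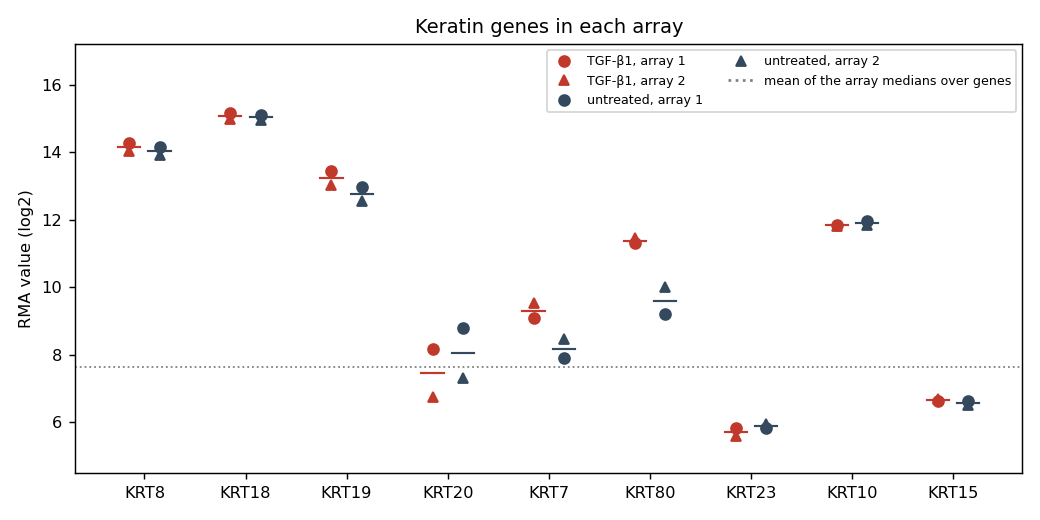
RMA value (log2) of each keratin gene in each array, with TGF-β1 arrays on the left of each pair and untreated arrays on the right. Circles are arrays 1, triangles arrays 2, short lines the group means (n = 2), and the dotted line is the mean of the array medians over genes. KRT80 read 11.31 and 11.45 with TGF-β1 against 9.19 and 10.00 without, while KRT8 and KRT18 stayed near 14 and 15 in all 4 arrays.

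KRT80 is a type II keratin found near desmosomes and cell margins in many epithelia. It read 11.31 and 11.45 in TGF-β1 arrays, against 9.19 and 10.00 in untreated arrays. The groups did not overlap, and the untreated arrays lay further apart than the TGF-β1 arrays. The mean was 11.38 ± 0.096 with TGF-β1 and 9.60 ± 0.574 without (SD, n = 2), and the log2 fold change of 1.78 ± 0.254 (SE) passed (limma adjusted p = 0.0251). It ranked 45 from the top among 19775 genes by log2 fold change. With 1 array left out, the call held without untreated replicate 2 and was lost without any other array, at log2 fold changes of 1.37 to 2.18. Each such fit, here and below, leaves 1 residual degree of freedom, and most calls among all genes were lost in it. Adjusted over all 54613 probe sets in place of genes, its single probe set lay just past the threshold, uncalled (limma adjusted p = 0.0501), and 0 of the 15 keratin sets were called by limma, against 0.954% of all sets, while 2 (KRT80 and KRT7) had an unadjusted p under 0.05, as did 13.2% of all sets.

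KRT7, the type II keratin of many ductal and glandular epithelia, is used in pathology together with KRT20 to tell tumour origins apart. By its brightest probe set, 209016_s_at, it read 9.09 and 9.52 in TGF-β1 arrays, against 7.90 and 8.46 in untreated arrays. These arrays did not overlap, and KRT7 averaged 9.31 ± 0.300 with TGF-β1 and 8.18 ± 0.391 without (SD, n = 2), a 2.18-fold difference. The log2 fold change was 1.13 ± 0.221 (SE), and it did not pass (limma adjusted p = 0.0550). It passed with an intensity trend (limma adjusted p = 0.0485), over genes with a mean of 7 or more (0.0419) and with arrays centred on their medians (0.0417). The series' design text defines its response signature by a 2-fold rise at an unadjusted limma p under 0.05. KRT80 and KRT7 met this rule, as did 1.02% of all genes.

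The other 3 KRT7 probe sets did not show this difference. Probe set 1558393_at read 8.52 and 8.70 in TGF-β1 arrays, against 8.59 and 8.41 in untreated arrays, a log2 fold change of 0.11 with a 95% interval of -0.20 to 0.42. The 2 remaining sets, 1558394_s_at and 214031_s_at, read between 4.48 and 5.06 in all arrays, far under the median over genes, with log2 fold changes of 0.11 and 0.0045. With 1 array left out the KRT7 value lay between 0.85 and 1.40 and did not pass (limma adjusted p 0.0826 to 0.248). The average of all 4 sets gave KRT7 a log2 fold change of 0.34 (limma adjusted p = 0.175). An antisense gene, KRT7-AS, lies within KRT7 in the RefSeq annotation, and which transcripts each set reads was not tested.

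**Figure D2:**
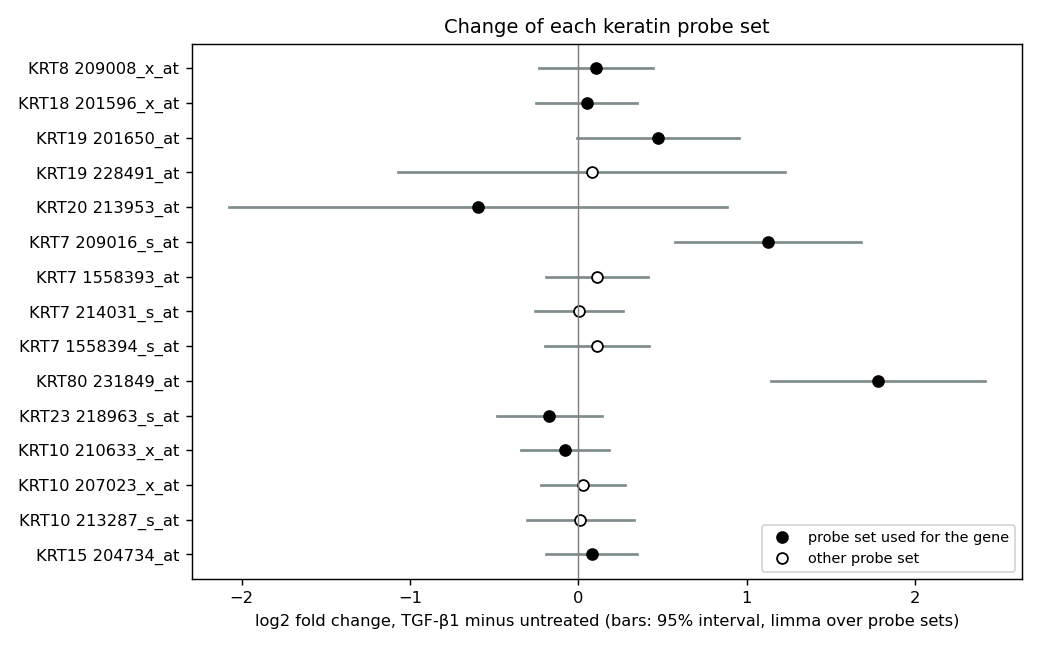
Log2 fold change (TGF-β1 minus untreated) of the 15 keratin probe sets with 95% intervals from limma over all probe sets (n = 2 arrays per group). Filled points are the sets used for the gene and open points the others. The KRT80 set and 1 of the 4 KRT7 sets lie to the right of the rest, and the KRT20 and second KRT19 sets have the widest intervals.

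KRT19, the smallest type I keratin, lacks the tail domain and is widespread in simple epithelia. It read 13.45 and 13.03 in TGF-β1 arrays, against 12.97 and 12.57 in untreated arrays. The lower TGF-β1 array lay just above the higher untreated array. The log2 fold change was 0.47 ± 0.191 (SE, 95% interval 0.0083 to 0.94, limma adjusted p = 0.292). It lay between 0.27 (without TGF-β1 replicate 1 or untreated replicate 2) and 0.68 (without TGF-β1 replicate 2) with 1 array left out, and the average of both KRT19 probe sets gave 0.27. Each fit with 1 array left out sets partly unlike replicate numbers against each other. TGF-β1 minus untreated was 0.477 between the arrays of number 1 and 0.468 between those of number 2. A second KRT19 probe set, 228491_at, read 5.65 and 6.75 in TGF-β1 arrays and 6.69 and 5.55 in untreated arrays, so that its replicates differed by over 1 log2 unit in opposite directions. With KRT7 and KRT80, KRT19 made 3 of 9 keratins with both TGF-β1 arrays above both untreated arrays, which was so for 21.4% of all genes. KRT10 was the 1 gene of the 9 with both TGF-β1 arrays below, as were 23.0% of all genes.

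KRT8 and KRT18 read near the top of the arrays' range in every sample. KRT8 read 14.26 and 14.02 in TGF-β1 arrays, against 14.15 and 13.92 in untreated arrays, and the groups overlapped. Its log2 fold change was 0.11 ± 0.134 (SE), with a 95% interval of -0.22 to 0.43. KRT18 read 15.17 and 14.99 in TGF-β1 arrays, against 15.10 and 14.95 in untreated arrays, again with overlap. Its log2 fold change was 0.05 ± 0.117 (SE), with a 95% interval of -0.24 to 0.33. The highest values of the arrays were 15.26 to 15.34, so the KRT18 set had little room to read higher. Both genes have processed pseudogenes, and both were read here by _x_at probe sets, a suffix for sets with probes that can also match other transcripts.

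KRT10, the type I keratin of the upper epidermis, was read by 3 probe sets that gave log2 fold changes of -0.08, 0.03 and 0.01. The sets at -0.08, which was used for the gene, and at 0.03 were also _x_at sets. By the set used for the gene, KRT10 read 11.84 and 11.82 in TGF-β1 arrays, against 11.97 and 11.85 in untreated arrays (95% interval of the log2 fold change -0.33 to 0.17). KRT15, a basal-layer keratin, read 6.62 and 6.68 in TGF-β1 arrays, against 6.64 and 6.50 in untreated arrays. KRT23, a type I keratin known to be raised by histone deacetylase inhibitors in colon cancer cells, read 5.84 and 5.60 in TGF-β1 arrays, against 5.82 and 5.96 in untreated arrays. KRT15 and KRT23 lay under the median over genes in all 4 arrays. Whether levels this low exceed background cannot be read from RMA values. Their 95% intervals were -0.18 to 0.33 for KRT15 and -0.47 to 0.13 for KRT23.

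KRT20, the type I keratin of differentiated enterocytes and goblet cells and a marker of colorectal tumours, differed more between replicate numbers than between treatments. It read 8.16 and 6.74 in TGF-β1 arrays, against 8.78 and 7.30 in untreated arrays, and the groups overlapped. Array 2 minus array 1 was -1.42 with TGF-β1 and -1.48 without. The log2 fold change for TGF-β1 was -0.60 ± 0.594 (SE, 95% interval -2.04 to 0.85, limma adjusted p = 0.730). Leaving out 1 array moved it between -1.34 and 0.14, and it turned positive without TGF-β1 replicate 2 (0.12) or untreated replicate 1 (0.14). Each of these fits sets unlike replicate numbers against each other. Between arrays of the same number, TGF-β1 minus untreated was -0.62 for number 1 and -0.57 for number 2. Among the markers of other cell types, the fibroblast collagen gene COL3A1, singled out after its values were seen, was likewise lower in array 2 of each group, at 7.38 and 5.83 with TGF-β1 against 9.18 and 7.48 without. Over the 8 fibroblast markers the mean was 6.34 to 6.49 in TGF-β1 arrays and 6.64 to 6.77 in untreated arrays. The markers did not move together, with log2 fold changes of -1.72 for COL3A1 and -0.60 for LUM, but 0.20 for COL1A2, 0.09 for THY1 and 0.03 for COL1A1. Of the 8, 0 were called by limma, LUM read 3.06 to 3.91, and the part of these markers in the KRT20 values was not tested.

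Arrays of replicate number 2 were set against those of number 1 with treatment as a term. For KRT20 the difference was -1.45 ± 0.081 (SE, limma adjusted p = 0.112), wider than for any other of the 9. It was 0.49 ± 0.086 for KRT7, -0.41 ± 0.080 for KRT19 and -0.23 ± 0.080 for KRT8 (SE). By limma 0 of the 9 keratins and 0 of all genes passed the adjusted threshold. At an unadjusted p under 0.05 there were 4 keratins, against 11.4% of all genes. In both groups array 2 was the lower for 5 keratins and the higher for 2, and such a shared direction was seen for 58.1% of all genes.

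**Figure D3:**
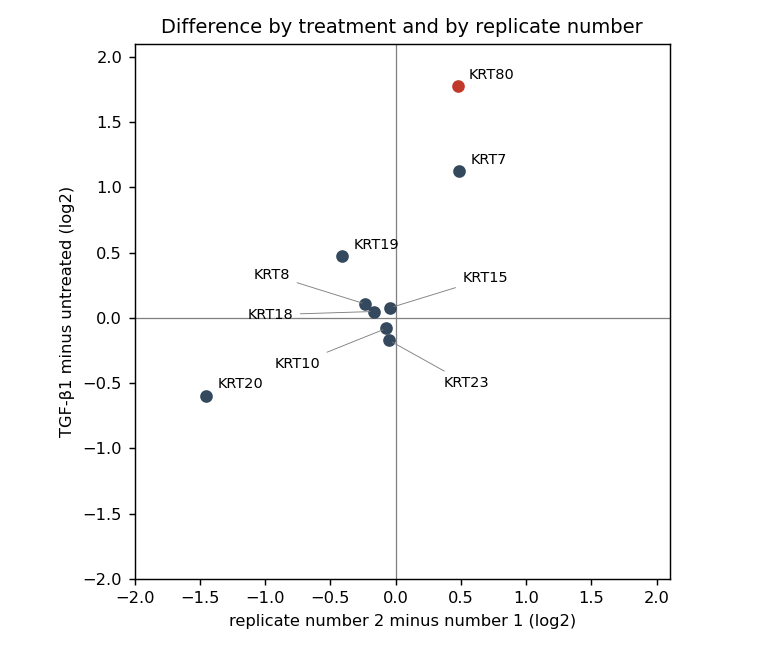
Difference of each keratin gene between TGF-β1 and untreated arrays (vertical axis, log2) against its difference between arrays 2 and 1 (horizontal axis, log2, treatment as a term). Each point is 1 gene and KRT80, the 1 called for treatment, is in red. KRT80 and KRT7 lie high on the vertical axis, while KRT20 lies farthest out on the horizontal axis at -1.45.

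The caudal homeobox factors CDX1 and CDX2 drive intestinal differentiation, and KRT20 is among their known targets. CDX1 read 9.89 and 10.16 in TGF-β1 arrays, against 10.25 and 10.77 in untreated arrays, and did not pass (limma adjusted p = 0.284). CDX2 read 8.57 and 8.43 in TGF-β1 arrays, against 9.32 and 9.14 in untreated arrays, and fell by 0.73 ± 0.114 on the log2 scale (SE, limma adjusted p = 0.0327). That call was lost with any 1 array left out (limma adjusted p 0.101 to 0.195). Promoter sequences of 3 of the 10 genes were at hand from RefSeq (KRT8, KRT10 and KRT20, GRCh38.p14). The promoters of KRT20, as the keratin tied to CDX factors, and of KRT10, as one whose level hardly differed, are shown from 250 bases before to 50 after the start site. Both run 5′ to 3′ on the gene's strand, the minus strand, at chr17:40885193-40885492 for KRT20 and chr17:40822565-40822864 for KRT10. Capitals mark each match to the CDX core TTTAT on either strand.
KRT20: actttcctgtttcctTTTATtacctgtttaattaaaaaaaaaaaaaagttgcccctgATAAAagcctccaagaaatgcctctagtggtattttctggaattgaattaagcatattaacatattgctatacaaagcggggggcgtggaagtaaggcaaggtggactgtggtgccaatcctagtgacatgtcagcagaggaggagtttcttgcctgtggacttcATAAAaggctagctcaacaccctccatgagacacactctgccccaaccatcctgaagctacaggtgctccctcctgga
KRT10: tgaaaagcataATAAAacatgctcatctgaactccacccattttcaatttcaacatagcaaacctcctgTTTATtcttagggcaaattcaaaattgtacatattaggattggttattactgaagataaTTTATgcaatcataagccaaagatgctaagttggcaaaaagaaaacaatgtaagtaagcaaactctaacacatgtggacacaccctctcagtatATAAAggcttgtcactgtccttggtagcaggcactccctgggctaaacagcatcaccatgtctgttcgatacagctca
KRT20 held 3 matches, which began 235, 193 and 28 bases before the start site, and KRT10 held 4. The match that began 28 bases before the start site in each gene lies where TATA boxes are usually found. At least 1 match was present in 34.9% of 35116 promoters of this length, 3 or more in 6.18% and 4 or more in 2.67%. The KRT8 window (chr12:52926420-52926719) held none. It lies inside the annotated span of KRT8 (chr12:52897191-52949860), and no window at the outer end of that span was searched. None of the 3 windows held the AP-1 motif TGANTCA, present in 7.71% of promoters, or the palindromic SMAD motif GTCTAGAC, present in 0.202%, searched on both strands. No promoter of KRT80, KRT7 or KRT19 was at hand. A match describes these letters and says nothing of a factor's binding.

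KRT80 and KRT7 are neighbours at one end of the type II keratin cluster on chromosome 12 (GRCh38.p14, chr12:52168996-52192014 and chr12:52233243-52255853), with 41228 bases between them. The noncoding genes LINC02874 and LINC00592 lie in that gap. LINC00592 read 6.32 and 6.41 in TGF-β1 arrays, against 6.06 and 5.73 in untreated arrays, without overlap and without passing (limma adjusted p = 0.144). LINC02874 read 6.82 and 7.27 in TGF-β1 arrays and 7.05 and 6.43 in untreated arrays, with overlap. Of the 14 other measured genes within 250 kb of KRT80, 0 were called by limma. At an unadjusted p under 0.05 there were 2, KRT7 and LINC00592, each higher, against 1617 of all 19775 genes higher (16.7% in either direction). The median log2 fold change of the 14 was 0.07. KRT83, KRT84, KRT85 and KRT75, farther into the cluster, had log2 fold changes of 0.01, -0.23, -0.08 and 0.24. These neighbours were picked by distance, after KRT80 had been called.

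**Figure D4:**
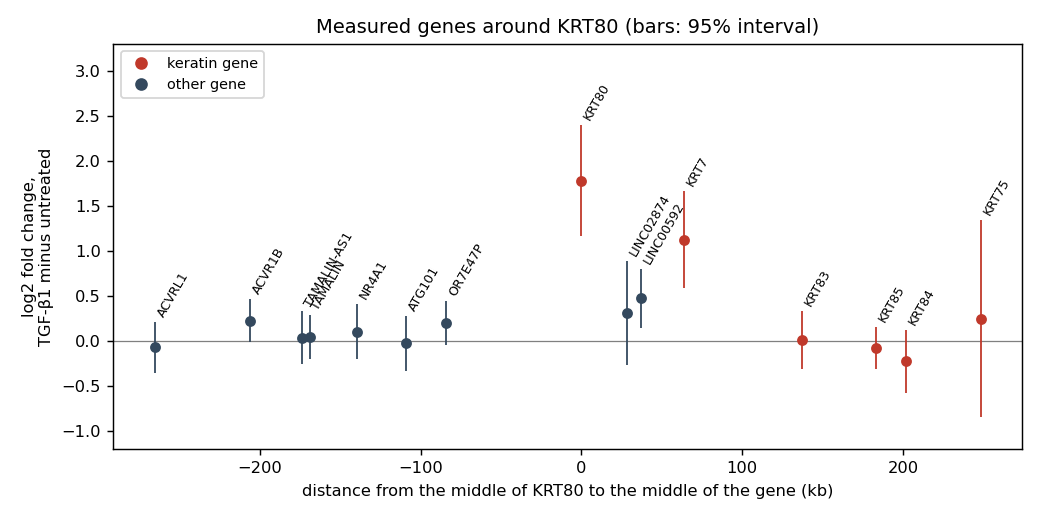
Log2 fold change (TGF-β1 minus untreated) with 95% interval of each measured gene within 250 kb of KRT80, by distance in kb between gene midpoints (n = 2 arrays per group). Keratin genes are in red and others in dark blue. KRT80 and KRT7 lie above the other genes, at 1.78 and 1.13.

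The other keratins were examined as 2 lists. Of 18 measured type I keratins outside the 10, 1 rose and 0 fell, against 1.87% of all genes called higher and 1.47% lower. Of 17 type II keratins 0 were called by limma. At an unadjusted p under 0.05, 1 of these 17 was higher, against 1617 of all 19775 genes higher (16.7% in either direction). Of the type I and type II genes, 18 of 18 and 16 of 17 had mean levels under the median over genes. KRT16, the type I keratin induced in wounded and hyperproliferating squamous epithelium, was the one that rose. It read 7.59 and 7.40 in TGF-β1 arrays, against 6.52 and 6.49 in untreated arrays, with no overlap. The log2 fold change was 0.99 ± 0.110 (SE). KRT16 passed (limma adjusted p = 0.0127), and the call was lost with any 1 array left out, at log2 fold changes of 0.90 to 1.09. KRT14 and KRT17 are close relatives of KRT16. KRT14 read 6.04 and 5.97 in TGF-β1 arrays, against 5.65 and 5.72 in untreated arrays (limma adjusted p = 0.168), and whether the KRT16 set also reads KRT17 was not tested. Among type II keratins KRT71, an inner root sheath keratin of hair, had the widest difference, 0.37 (limma adjusted p = 0.297). The list medians were 0.02 for type I and 0 for type II.

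A further list held genes of keratin attachment and organisation, such as desmosome and hemidesmosome parts and plakins. Of its 17 measured genes 5 rose and 0 fell, against 1.87% of all genes called higher and 1.47% lower. The list was chosen with earlier results of these data known, and 1 of the 17 had a mean level under the median over genes. PKP1, a desmosomal plakophilin typical of stratified epithelia, read 8.16 and 7.93 in TGF-β1 arrays, against 6.92 and 6.65 in untreated arrays. It was 2.39-fold higher (limma adjusted p = 0.0126). JUP (plakoglobin, which links desmosomal cadherins to desmoplakin) was 2.01-fold higher. ITGB4, the integrin β4 chain of hemidesmosomes, was also 2.01-fold higher by its _s_at set, while preferring a plain _at set gave a log2 fold change of 0.10 (limma adjusted p = 0.794) and the average of its sets missed the threshold (0.0579). PLEC, the cytolinker plectin, was 1.64-fold higher. EVPL (envoplakin), named after its values were seen, was 1.46-fold higher, at a limma adjusted p of 0.0494, and was not called with an intensity trend (0.0504) or with plain _at sets preferred for all genes (0.0551). The list median was 0.30, against -0.0036 over all genes. With any 1 array left out 0 of the 5 passed, a setting that leaves 1 residual degree of freedom and 70 to 104 calls among all genes.

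Among 15 measured genes of the cornified envelope and squamous differentiation, 1 rose, against 1.87% of all genes called higher. This was SFN (stratifin, an epithelial 14-3-3 protein). It read 14.10 and 14.14 in TGF-β1 arrays, against 13.46 and 13.50 in untreated arrays, a difference of 0.64 ± 0.097 (SE, limma adjusted p = 0.0296). That call too was lost with any 1 array left out (limma adjusted p 0.130 to 0.185). The list median was 0.02. Of 16 other intermediate filament genes 0 were called by limma. At an unadjusted p under 0.05, 1 was lower, against 1688 of all 19775 genes lower (16.7% in either direction). This was LMNB1 (lamin B1), which read 10.66 and 10.68 in TGF-β1 arrays, against 11.10 and 11.13 in untreated arrays (limma adjusted p = 0.0732). The median of that list was 0.05.

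Of 12 measured transcription factors reported to act on keratin genes, 3 rose and 1 fell, CDX2. Over all genes, 1.87% were called higher and 1.47% lower. The list median was 0.08. The 3 that rose were the AP-1 subunits JUNB, FOS and JUN. A further AP-1 subunit of the list, FOSL1, was not called (log2 fold change 0.32, limma adjusted p = 0.455). JUNB read 10.53 and 10.51 in TGF-β1 arrays, against 8.79 and 8.96 in untreated arrays, a 3.13-fold rise that passed with each of the 4 arrays left out (limma adjusted p 0.0274 to 0.0384). FOS was 2.65-fold higher, and its call was kept without untreated replicate 2 (limma adjusted p = 0.0314) and lost with any other array left out (up to 0.163). JUN was 2.47-fold higher by an _x_at set, at a log2 fold change of 0.74 with a plain _at set (limma adjusted p = 0.0726), and its call was lost with any 1 array left out.

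**Figure D5:**
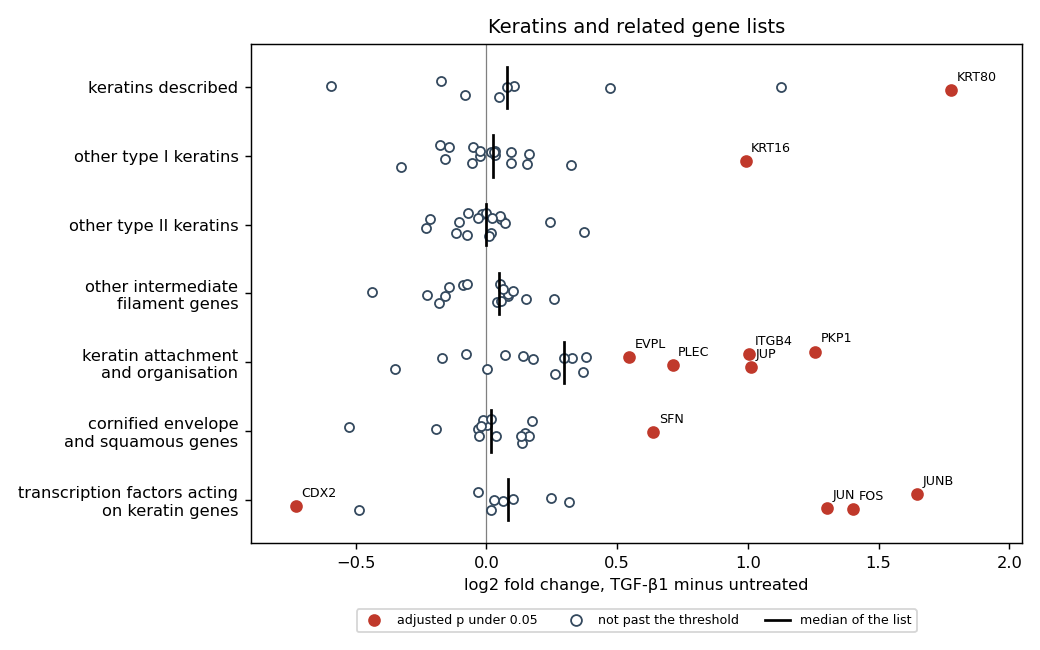
Log2 fold change (TGF-β1 minus untreated) of each measured gene in the keratin set and 6 related lists. Each point is 1 gene, red where the limma adjusted p was under 0.05, and black bars are list medians. The 3 keratin lists have medians of 0.08, 0.02 and 0, with KRT80, KRT7 and KRT16 farthest above 0, and the attachment list has a median of 0.30 with 5 called genes.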

How the data were processed

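Total RNA was hybridised to 1-colour HG-U133 Plus 2.0 arrays. The deposited table holds 1 log2 value per probe set and array, which the authors made by RMA (background correction, quantile normalization and summarization), per the series' design text. The log2 scale was judged from the values, and for the RMA software used no version is given in the sources used here. Quantile normalization would hide a common shift of most transcripts, and RMA gives no detection call.

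Of 54675 probe sets, 62 were array controls. The platform annotation gave 41097 sets 1 symbol, 1801 several and 11777 none. Of the sets with 1 symbol, 41043 took the RefSeq symbol of their Entrez gene ID, whether or not it differed. Each gene was read by the set whose mean over the 4 arrays was highest. The test between groups was limma 3.58.1 (R 4.3.3; lmFit, eBayes, two-sided, 6.13 degrees of freedom, no covariate or filter), and the script was tested on simulated data. The same fit was run over probe sets, and replicate numbers were compared with treatment as a term. An exact permutation test of 2 against 2 arrays cannot go below p = 0.333 and was not used. Precision is limited by the number of arrays.

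The keratins and the lists were chosen with earlier results of these data known. All measured members are named. Of each other list up to 4 called genes with the largest change are named, or the 1 with the largest change where none was called. A few others, such as CDX1 and FOSL1, are named beside these. Alternatives were a minimum mean of 5 or 7, an intensity trend, median centring, other probe set choices, a replicate block, other thresholds and leaving out each array.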

Additional observations from a re-analysis of the deposited data

How the results depend on the processing

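In place of 1 keratin gene called by limma, 2 were called over genes with a mean of 7 or more, with an intensity trend, with arrays centred on their medians and by the 2-fold signature rule, KRT7 being added to KRT80, and 3 at an unadjusted p under 0.05. Without 1 of the 4 arrays 0 to 1 were called. Over probe sets, in place of 0, 1 was called (KRT80) with a minimum mean of 5 or 7, an intensity trend, centred arrays or only sets with 1 symbol, and 2 by the signature rule or an unadjusted p, against 0 without any 1 array. Between replicate numbers 4 keratins had an unadjusted p under 0.05 in place of 0 called. That comparison has no spread left with 1 array fewer, so it was not run. Of 97 alternative values of the 9 keratin fold changes, 6 changed sign, none of them called: KRT8 was -0.011 without TGF-β1 replicate 1 and -0.0089 without untreated replicate 2, KRT18 -0.043 and -0.027 in the same fits, and KRT20 0.12 without TGF-β1 replicate 2 and 0.14 without untreated replicate 1. With 1 array left out these spanned -0.011 to 0.22 for KRT8, -0.043 to 0.14 for KRT18 and -1.34 to 0.14 for KRT20. Between arrays of the same number (1, then 2), TGF-β1 minus untreated was 0.108 and 0.104 for KRT8. It was 0.064 and 0.034 for KRT18, and -0.62 and -0.57 for KRT20. With the replicate block, 2 keratins were called, KRT80 (limma adjusted p = 0.0386) and KRT7 (0.0267), KRT20 and KRT19 came to 0.0538 and 0.0726, and 0 keratin probe sets were called. Of the 11 other genes with calls named in the report, the block left ITGB4 (0.0734), EVPL (0.0598) and PLEC (0.0539) uncalled, so 2 of the 5 attachment genes passed. The labels do not say what the numbers mark, and with 2 pairs they were not taken as pairing the arrays (replicate differences correlated at 0.364 across genes). Over all genes 660 were called, 561 with the block, 274 by the signature rule in either direction and 3305 at an unadjusted p. Over all probe sets 521 were called, 966 with a mean of 7 or more, 88 with the block, 7215 at an unadjusted p and 0 to 26 without 1 array.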

Other observations

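Probe sets named for keratin pseudogenes and an antisense gene were read beside the keratins. KRT10-AS1 read 9.89 and 10.03 in TGF-β1 arrays, against 10.23 and 9.91 in untreated arrays. KRT8P12 read 8.54 and 8.29 in TGF-β1 arrays, against 8.63 and 8.24 in untreated arrays, by its brighter set. KRT17P5 read 6.99 and 7.19 in TGF-β1 arrays, against 6.88 and 6.84 in untreated arrays (limma adjusted p = 0.507 over probe sets), while KRT17 itself was not analysed here. KRT75, a type II keratin of the hair follicle singled out after its values were seen, read 8.31 and 9.09 in TGF-β1 arrays, against 7.79 and 9.12 in untreated arrays, and was thus higher in array 2 of each group, opposite to KRT20.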
